A study of Mus musculus with 6 samples.

Results

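The *Nduf* genes of gonadal white adipose tissue (GWAT) encode the nuclear subunits of respiratory complex I and some of its assembly factors, and 43 of them were measured among 19937 genes. The members are all genes whose symbol starts with *Nduf* and that have a probeset with a single gene symbol in the array annotation. The tissue came from chow-fed male mice aged 4 months. The *ob/ob* group lacked leptin, and the *ob/ob/Fsp27*-/- group lacked both leptin and Fsp27, the lipid droplet protein encoded by *Cidec*, so leptin deficiency was common to both groups and no lean group was compared here. *Fsp27* was deleted in the whole body, and GWAT is a mixture of adipocytes, immune, vascular and stromal cells. There were 3 arrays per genotype (GeneChip Mouse Gene ST), and per the study's methods each array held RNA pooled from 3 mice, although the labels do not mention pooling. Levels are RMA values, which are on the log2 scale, and n counts arrays.

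Complex I (NADH:ubiquinone oxidoreductase) is the entry point of NADH electrons into the mitochondrial respiratory chain and the largest of its complexes. Its matrix arm holds the NADH module, where NADH is oxidised by a flavin, and the quinone module, where iron-sulfur clusters pass the electrons to ubiquinone. Its membrane arm pumps protons, and its pumping core is encoded by mitochondrial DNA. Accessory subunits surround the core, and assembly factors build the complex without staying in it. White adipocytes carry few mitochondria compared with brown adipocytes.

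Short promoter sequences are shown first, as examples of the windows searched for motif letters below. The sequences are the 120 bases before the transcription start in RefSeq (build GRCm38.p6), written 5′ to 3′ of the gene. Capitals mark a match to the NRF1 letters GCGCANGCG or the ETS letters CCGGAAG on either strand. *Ndufb8* (chr19:44555443-44555562, minus strand) is shown for the largest log2 fold change of the 43 genes, *Ndufa8* (chr2:36049339-36049458, minus strand) for a pair of NRF1 matches, *Ndufs3* (chr2:90904722-90904841, minus strand) for an ETS match in a core subunit gene and *Ndufaf4* (chr4:24897963-24898082, plus strand) for an NRF1 match in an assembly factor gene.
Ndufb8: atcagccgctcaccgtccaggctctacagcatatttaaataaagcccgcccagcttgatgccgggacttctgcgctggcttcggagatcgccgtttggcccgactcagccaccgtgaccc
Ndufa8: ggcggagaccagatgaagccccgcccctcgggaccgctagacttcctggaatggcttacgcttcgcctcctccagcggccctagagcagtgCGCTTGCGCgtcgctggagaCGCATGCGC
Ndufs3: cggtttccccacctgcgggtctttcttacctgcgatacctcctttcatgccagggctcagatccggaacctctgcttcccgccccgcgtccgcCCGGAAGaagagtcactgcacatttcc
Ndufaf4: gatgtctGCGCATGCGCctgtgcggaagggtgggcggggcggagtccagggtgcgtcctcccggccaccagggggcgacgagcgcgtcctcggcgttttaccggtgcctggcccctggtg

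Expression of complex I genes was higher in *ob/ob/Fsp27*-/- than in *ob/ob* GWAT. Of the 43 genes, 38 were called higher in limma (adjusted p under 0.05, log2 fold change 0.5 or more), compared with 9.58% of all genes tested. No *Nduf* gene was called lower, compared with 10.8% of all genes, and the count of members with a log2 fold change below 0 and an unadjusted p under 0.05 was also 0. The median log2 fold change of the 43 genes was 0.96, or 1.94-fold, and the range was -0.08 to 1.75, while the median over all genes tested was 0.06. All 3 *ob/ob/Fsp27*-/- arrays lay above all 3 *ob/ob* arrays for 41 of the 43 genes, and 25.3% of all genes were separated in this direction. In bulk tissue, a change in the number of cells of a type and a change in RNA per cell cannot be told apart.

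**Figure D1:**
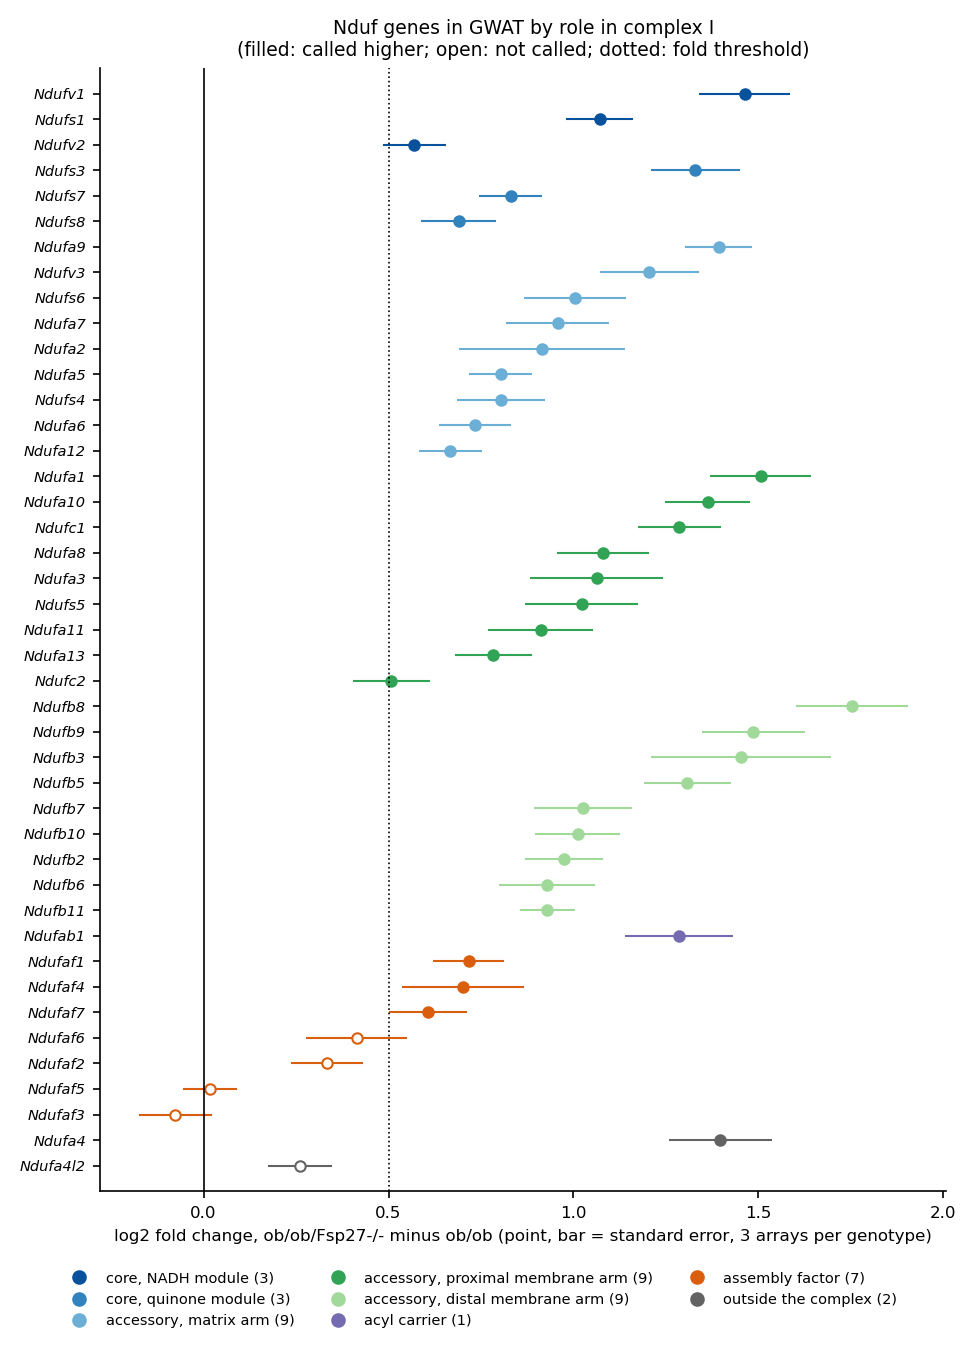
Log2 fold change of each of the 43 *Nduf* genes in GWAT, *ob/ob/Fsp27*-/- minus *ob/ob*, with its standard error from limma (3 arrays per genotype), coloured by role. The 34 subunits of complex I are all filled (called higher) and lie between 0.51 and 1.75, while 4 of the 7 assembly factors and *Ndufa4l2* are open (not called).

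All 34 complex I subunits were called higher, with a median log2 fold change of 1.02, and 19 of them were called with a log2 fold change of at least 1, as were 3.27% of all genes tested. When limma's treat was used to test against the fold threshold itself, 20 of the 43 *Nduf* genes were called higher, compared with 2.84% of all genes. The 6 core subunits measured had a median of 0.95 and the 28 accessory subunits a median of 1.02. *Ndufb1* and *Ndufaf8* were not analysed here. *Ndufb4* was not a member because both of its probesets are shared with its near copy *Ndufb4b*, and these rose with log2 fold changes of 0.87 and 1.44.

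The NADH module was represented by 3 core genes, and all rose. *Ndufv1* encodes the subunit that binds NADH and the flavin. Its RMA values were 9.01, 9.25 and 9.47 on the *ob/ob* arrays and 10.64, 10.75 and 10.73 on the *ob/ob/Fsp27*-/- arrays. The lowest *ob/ob/Fsp27*-/- array was 1.17 above the highest *ob/ob* array, and the log2 fold change was 1.46 (standard error 0.12, adjusted p = 0.000256), the largest of the core genes. *Ndufs1*, the large iron-sulfur subunit, had RMA values of 9.35, 9.45 and 9.22 in *ob/ob* against 10.43, 10.33 and 10.47 in *ob/ob/Fsp27*-/- mice. The groups were again apart, with a log2 difference of 1.07 (standard error 0.09, adjusted p = 0.000261). *Ndufv2*, an iron-sulfur partner of *Ndufv1*, moved least of the core genes, from 10.69, 10.72 and 10.63 to 11.21, 11.17 and 11.37, a log2 difference of 0.57 (standard error 0.09, adjusted p = 0.00273).

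In the quinone module the 3 core genes measured also rose. *Ndufs3*, a scaffold subunit of this module, had RMA values of 9.32, 9.51 and 9.71 in *ob/ob* against 10.72, 10.96 and 10.83 in *ob/ob/Fsp27*-/- mice, a log2 difference of 1.33 (standard error 0.12, adjusted p = 0.000335). A second *Ndufs3* probeset gave 1.45. *Ndufs7*, which carries the last iron-sulfur cluster before ubiquinone, went from 10.85, 10.72 and 10.95 to 11.68, 11.64 and 11.69, a log2 difference of 0.83 (standard error 0.08, adjusted p = 0.000546). The 3 *ob/ob/Fsp27*-/- arrays were nearly level for this gene, with an SD of 0.02. *Ndufs8*, which holds further iron-sulfur clusters, went from 9.72, 9.76 and 9.92 to 10.33, 10.56 and 10.58, a log2 difference of 0.69 (standard error 0.10, adjusted p = 0.00252). No array of one genotype reached the other in any of these genes.

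The 9 accessory genes of the matrix arm were all called higher, with log2 fold changes from 0.67 to 1.39 and a median of 0.91. The largest belonged to *Ndufa9*, whose nucleotide-binding product sits near the junction of the arms. Its RMA values were 8.88, 8.99 and 9.11 in *ob/ob* against 10.29, 10.42 and 10.44 in *ob/ob/Fsp27*-/- mice (log2 fold change 1.39, standard error 0.09, adjusted p = 0.000106). The smallest belonged to *Ndufa12*, with RMA values of 7.29, 7.25 and 7.13 against 7.88, 7.81 and 7.98 (log2 fold change 0.67, standard error 0.09, adjusted p = 0.00138). Both genes kept the genotypes apart. Between them were *Ndufv3* at 1.21, the zinc-binding subunit gene *Ndufs6* at 1.004, *Ndufa7* at 0.96, *Ndufa2* at 0.91, *Ndufa5* at 0.80, *Ndufs4*, a frequent site of mutation in Leigh syndrome, at 0.80 and *Ndufa6*, which docks an acyl carrier protein, at 0.73. *Ndufa2* was the least certain of these: its *ob/ob* arrays ran from 7.93 through 8.24 to 8.80, its *ob/ob/Fsp27*-/- arrays from 8.99 to 9.45, and the adjusted p was 0.0209, which became 0.0691 to 0.0740 without the second *ob/ob*, the second *ob/ob/Fsp27*-/- or the third *ob/ob/Fsp27*-/- array.

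The 9 accessory genes of the proximal membrane arm, the part next to the quinone module, were all called higher as well, with a median log2 fold change of 1.06. *Ndufa1*, a small X-linked membrane subunit gene, was the highest of them, with RMA values of 7.07, 7.14 and 7.37 in *ob/ob* against 8.44, 8.84 and 8.81 in *ob/ob/Fsp27*-/- mice (log2 fold change 1.51, standard error 0.14, adjusted p = 0.000339). *Ndufa10*, whose product resembles a nucleoside kinase, followed at 1.36, then *Ndufc1* at 1.29. *Ndufa8*, the gene with a pair of NRF1 matches in the sequence above, rose by 1.08, *Ndufa3* by 1.06, *Ndufs5* by 1.02, *Ndufa11* by 0.91 and *Ndufa13*, also known as Grim19, by 0.78. *Ndufc2* was the smallest call among all subunits. Its RMA values were 11.26, 11.57 and 11.57 in *ob/ob* against 11.94, 12.02 and 11.96 in *ob/ob/Fsp27*-/- mice, and its log2 difference of 0.51 (standard error 0.10, adjusted p = 0.0100) was barely past the fold threshold and fell to 0.41 without the first *ob/ob* array and to 0.48 without the second *ob/ob/Fsp27*-/- array.

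The 9 accessory genes of the distal membrane arm ranged from 0.93 to 1.75, with a median of 1.03. *Ndufb8*, an accessory membrane subunit gene, had the largest log2 fold change of all members. Its RMA values were 8.02, 8.13 and 8.32 in *ob/ob* against 9.61, 9.97 and 10.15 in *ob/ob/Fsp27*-/- mice. The gap between the groups was 1.29, and the log2 fold change was 1.75 (standard error 0.15, adjusted p = 0.000282), or 3.37-fold. *Ndufb9*, which like *Ndufa6* belongs to the LYR motif proteins, rose by 1.49, *Ndufb3* by 1.45, *Ndufb5* by 1.31, *Ndufb7* by 1.03, *Ndufb10* by 1.01, *Ndufb2* by 0.97 and *Ndufb6* by 0.93. *Ndufb3* had the widest spread of any member in *ob/ob* mice, with arrays at 7.44, 8.13 and 8.40 (SD 0.49, n = 3). The smallest of the group was *Ndufb11*, with arrays at 10.07, 10.11 and 10.10 in *ob/ob* against 10.95, 11.05 and 11.06 in *ob/ob/Fsp27*-/- mice (log2 fold change 0.93, standard error 0.07, adjusted p = 0.000207).

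*Ndufab1* encodes the mitochondrial acyl carrier protein, which serves fatty acid synthesis in mitochondria and is also a subunit of complex I. Its RMA values were 8.68, 9.08 and 9.24 in *ob/ob* against 10.22, 10.27 and 10.35 in *ob/ob/Fsp27*-/- mice, a log2 difference of 1.29 (standard error 0.14, adjusted p = 0.000822). Its other probeset gave 1.06. Among the other genes with 2 probesets of their own, the second probeset gave 0.78 for *Ndufa11*, 0.93 for *Ndufb11* and 1.22 for *Ndufc1*, and all of these were called higher. A further *Ndufs5* probeset that is shared with the pseudogene *Ndufs5-ps* gave 0.97. Array probes may not separate a gene from near-identical pseudogene copies. RefSeq (GRCm38.p6) lists pseudogenes named *Ndufa11b*, *Ndufa12-ps*, *Ndufab1-ps* and *Ndufs6b* too.

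**Figure D2:**
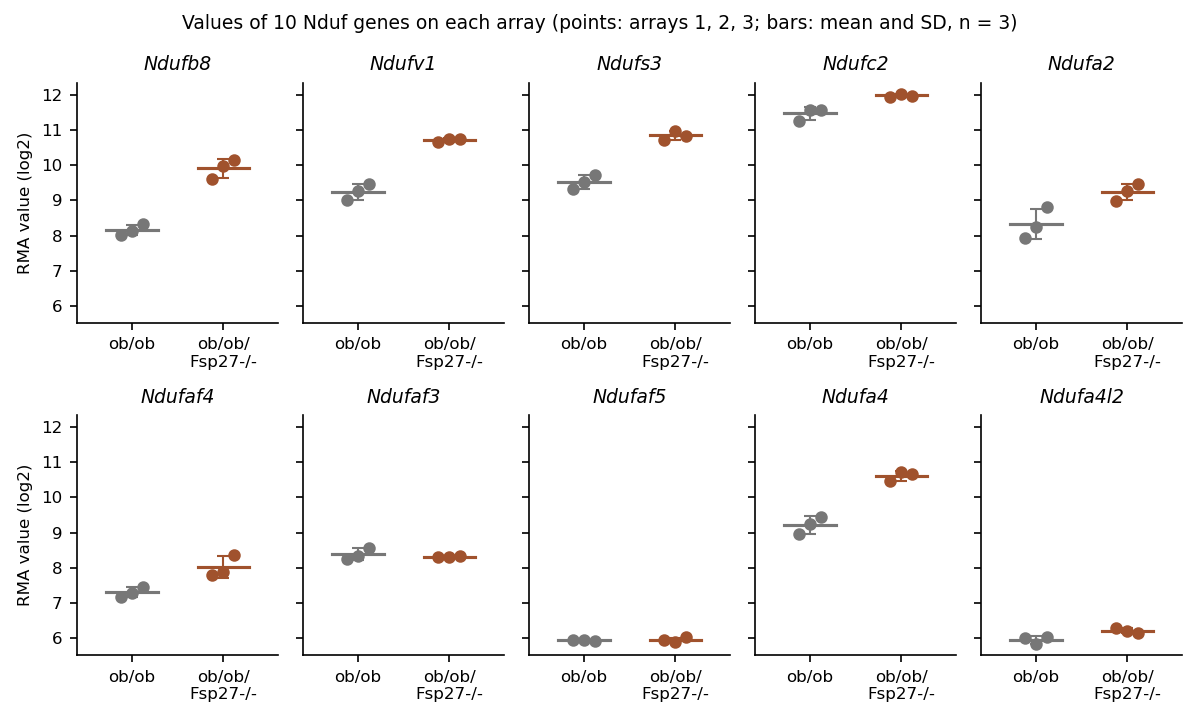
RMA values (log2) of 10 *Nduf* genes on each of the 6 arrays, with the mean and SD of each genotype (n = 3). The genotypes are apart for *Ndufb8*, *Ndufv1*, *Ndufs3*, *Ndufc2*, *Ndufa2*, *Ndufaf4*, *Ndufa4* and *Ndufa4l2* and overlap for *Ndufaf3* and *Ndufaf5*. Heights of different genes are not comparable, because probes differ in brightness.

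The assembly factors with an *Nduf* name were called less uniformly: 3 of 7 were higher, with a median log2 fold change of 0.41 and a range of -0.08 to 0.72. The difference between assembly factors and subunits was not tested. *Ndufaf1*, a member of the MCIA complex that builds the membrane arm, had the largest change, with RMA values of 8.96, 9.10 and 9.03 in *ob/ob* against 9.75, 9.60 and 9.88 in *ob/ob/Fsp27*-/- mice (log2 fold change 0.72, standard error 0.10, adjusted p = 0.00174). *Ndufaf4*, the gene shown above with an NRF1 match, was called at 0.70 (adjusted p = 0.0176), but not without the first or the second *ob/ob* array (adjusted p = 0.0550 and 0.0616). *Ndufaf7*, a mitochondrial methyltransferase gene, was called at 0.61 (adjusted p = 0.00491).

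*Ndufaf3*, which works with *Ndufaf4* on the quinone module, was the sole member with a log2 fold change below 0. Its RMA values were 8.26, 8.34 and 8.57 in *ob/ob* against 8.30, 8.30 and 8.33 in *ob/ob/Fsp27*-/- mice, so the *ob/ob/Fsp27*-/- arrays lay within the *ob/ob* range (log2 fold change -0.08, standard error 0.10, adjusted p = 0.611). *Ndufaf5*, which hydroxylates *Ndufs7*, was at 5.95, 5.96 and 5.91 against 5.94, 5.91 and 6.02 (log2 fold change 0.02, standard error 0.07, adjusted p = 0.887). These were the 2 genes whose genotypes overlapped. *Ndufaf2*, a factor of late assembly, had values of 6.40, 6.40 and 6.60 against 6.69, 6.79 and 6.92, with the groups apart and an adjusted p of 0.0398, but its log2 difference of 0.33 (standard error 0.10) was under the fold threshold. *Ndufaf6* was at 5.83, 5.98 and 5.92 against 6.14, 6.21 and 6.62 (log2 fold change 0.41, standard error 0.14, adjusted p = 0.0592). Its groups were also apart, with the third *ob/ob/Fsp27*-/- array well above the other two, and it was called when the first *ob/ob/Fsp27*-/- array was left out (log2 fold change 0.51, adjusted p = 0.0421).

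The symbol rule also takes in 2 genes whose products are placed outside complex I. *Ndufa4* was once counted among its subunits and is now assigned to cytochrome c oxidase, complex IV. It rose from 8.96, 9.23 and 9.45 to 10.45, 10.73 and 10.65, a log2 difference of 1.40 (standard error 0.14, adjusted p = 0.000499). *Ndufa4l2*, its hypoxia-inducible paralog, was at 6.01, 5.83 and 6.03 in *ob/ob* against 6.28, 6.22 and 6.15 in *ob/ob/Fsp27*-/- mice. Its groups did not overlap, but the log2 difference of 0.26 (standard error 0.09, adjusted p = 0.0636) was not called.

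Other genes tied to complex I were taken from lists written from general knowledge. Of 10 assembly factors without an *Nduf* name, 5 were called higher and none lower, with a median log2 fold change of 0.52. *Foxred1*, an oxidoreductase-like assembly factor, had the largest change, from 7.61, 7.88 and 8.13 to 9.27, 9.41 and 9.52 (log2 fold change 1.52, standard error 0.14, adjusted p = 0.000383). Among the MCIA partners of *Ndufaf1*, *Acad9* rose by 1.03, *Ecsit* by 0.98 and *Timmdc1* by 0.55, while *Tmem126b* at 0.41 and *Tmem186* at 0.49 were not called. These MCIA genes were named after their values were seen. *Nubpl*, which delivers iron-sulfur clusters to complex I, had the smallest value at -0.10 (adjusted p = 0.542). Of the 7 mitochondrially encoded subunits, *mt-Nd3* (annotated as ND3) had probesets of its own. The brighter of them gave 12.57, 12.67 and 12.58 in *ob/ob* against 12.91, 12.82 and 13.00 in *ob/ob/Fsp27*-/- mice, and its log2 fold change was 0.30 (adjusted p = 0.0324), under the fold threshold. The second was called at 0.50 (adjusted p = 0.0132), and the brighter probeset lies close to the top of the array's scale, whose highest value was 13.57. A probeset shared by *mt-Nd6* (annotated as ND6) and *Acsm2* gave 1.10 (adjusted p = 0.0602) and was not called.

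The rise was shared with the other respiratory complexes. Of 37 genes of complexes II to V, 34 were called higher, with a median log2 fold change of 1.03 beside the 1.02 of the complex I subunits. By complex, the counts were 4 of 4 for complex II (median 1.08), 9 of 9 for complex III (median 1.49), 9 of 9 for complex IV (median 1.03) and 12 of 15 for complex V (median 0.85). The 3 not called were *Atp5g1* at 0.03, *Atp5g2* at 0.42 and *Atp5j* at 0.39, all of ATP synthase. Ubiquinone, the acceptor of complex I, is also reduced by other dehydrogenases, and 5 of 6 of their genes were called higher, with *Dhodh* of pyrimidine synthesis at 0.30 (adjusted p = 0.0729). *Sdha*, counted above under complex II, is among these 6. Of 9 genes for chaperones and proteases of the mitochondrial matrix and inner membrane, 8 were called higher. The matrix protease gene *Lonp1*, whose product degrades matrix arm subunits, had the largest log2 fold change of these, 1.62.

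**Figure D3:**
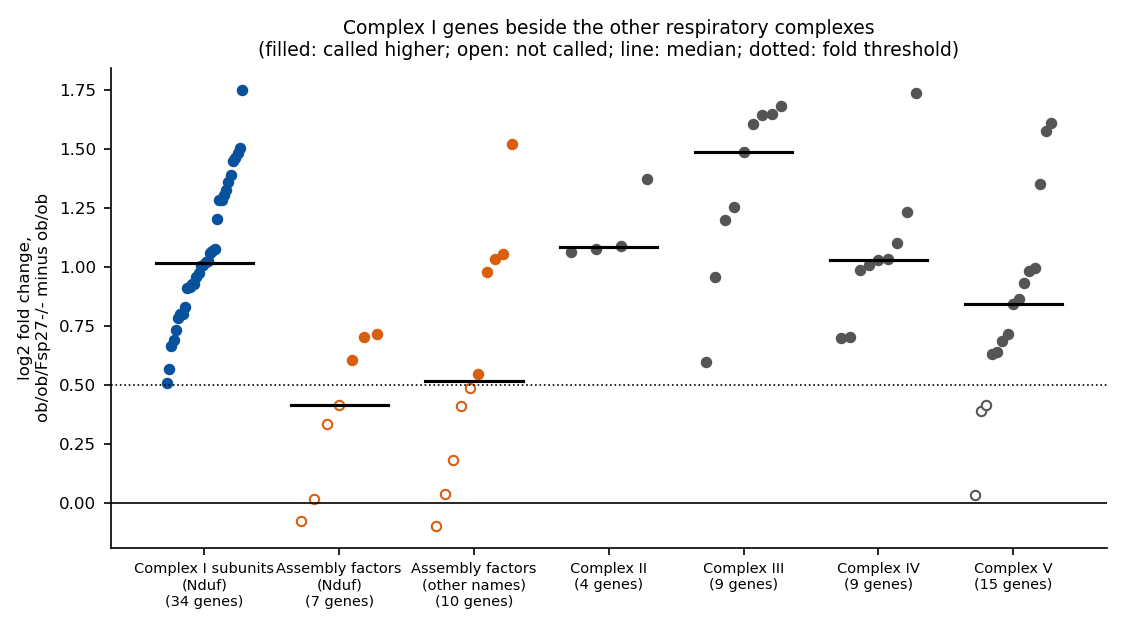
Log2 fold change in GWAT, *ob/ob/Fsp27*-/- minus *ob/ob*, for each gene of complex I, of its assembly factors and of complexes II to V, with the median of each list as a line. Medians are 1.02 for complex I subunits, 0.41 and 0.52 for assembly factors with and without an *Nduf* name, and 0.85 to 1.49 for complexes II to V.

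Regulators of respiratory chain genes were mixed, with 7 of 14 called higher and none lower. The coactivator gene *Ppargc1a* went from 5.62, 5.999 and 6.06 to 7.76, 7.70 and 7.85 (log2 fold change 1.88, standard error 0.13, adjusted p = 0.000123), with the genotypes 1.64 apart. *Esrra*, the nuclear receptor ERR alpha, was called at 0.68 (adjusted p = 0.00378), and *Tfam*, which packages and transcribes mitochondrial DNA, at 0.55 (adjusted p = 0.0236). The largest of the list was *Ppara* at 2.42 and the smallest *Sirt1* at -0.44. *Sirt1* (adjusted p = 0.0157) and *Pprc1* at -0.37 (adjusted p = 0.0272, named after its value was seen) had all *ob/ob/Fsp27*-/- arrays below the *ob/ob* arrays and missed a lower call by the fold threshold alone. Of the factors whose letters were searched for in promoters, *Esrra* passed the test and these did not: *Nrf1* was at 7.29, 7.20 and 7.30 against 7.25, 7.19 and 7.10 (log2 fold change -0.09, adjusted p = 0.469), *Gabpa*, an ETS factor, gave 0.24 (adjusted p = 0.0821) and *Yy1* gave -0.12 (adjusted p = 0.247).

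The promoter windows were searched on both strands for the letters these factors are known to bind. RefSeq windows from 250 bases before to 50 bases after the start were found for 38 of the 43 genes, 40 windows in all. NRF1 letters (GCGCANGCG) were in 25.0% of the *Nduf* windows, in 37.5% of those of complexes II to V and in 9.28% of the windows of all genes tested. ETS letters (CCGGAAG) were in 12.5%, 37.5% and 12.1% of them. YY1 letters (AANATGGCG) were in 17.5%, 9.38% and 3.28%. The ERR letters (TNAAGGTCA) were in none of the *Nduf* windows, in 6.25% of those of complexes II to V and in 0.989% of all windows. No matches of different motifs among NRF1, ETS, ERR and YY1 shared bases in these windows. Neighbouring NRF1 matches on opposite strands, as in *Ndufaf4*, can be a single palindromic stretch. Of the 38 genes, 20 had at least 1 of the NRF1, ETS, ERR and YY1 motifs and 18 had none of them, *Ndufb8* included. The median log2 fold change was 0.91 for the 9 genes with NRF1 letters and 0.97 for the 29 without. For ETS letters it was 0.93 for the 5 genes with them and 0.97 for the 33 without. For YY1 letters it was 0.96 for the 7 with them and 0.97 for the 31 without. A match describes the letters of the window and does not show binding.

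Within each genotype the members moved together from array to array. The first *ob/ob* array was the lowest of its group for 32 of 43 genes (74.4%), compared with 34.3% of all genes tested, and the third was the highest for 32 of 43 (74.4%), compared with 40.9%. In *ob/ob/Fsp27*-/- mice the first array was the lowest for 32 of 43 genes (74.4%, all genes 36.04%) and the third the highest for 31 (72.1%, all genes 28.2%). The median SD of a member over the 3 arrays was 0.15 in *ob/ob* against 0.14 in *ob/ob/Fsp27*-/- mice. Over all genes tested it was lower, at 0.11 and 0.12. The mean RMA value over the 43 genes was 8.42, 8.54 and 8.69 on the *ob/ob* arrays and 9.37, 9.51 and 9.59 on the *ob/ob/Fsp27*-/- arrays, so the lowest *ob/ob/Fsp27*-/- array stood clear of the highest *ob/ob* array. Genes of complexes II to V had means of 9.86, 9.99 and 10.12 against 10.97, 11.06 and 11.09.

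**Figure D4:**
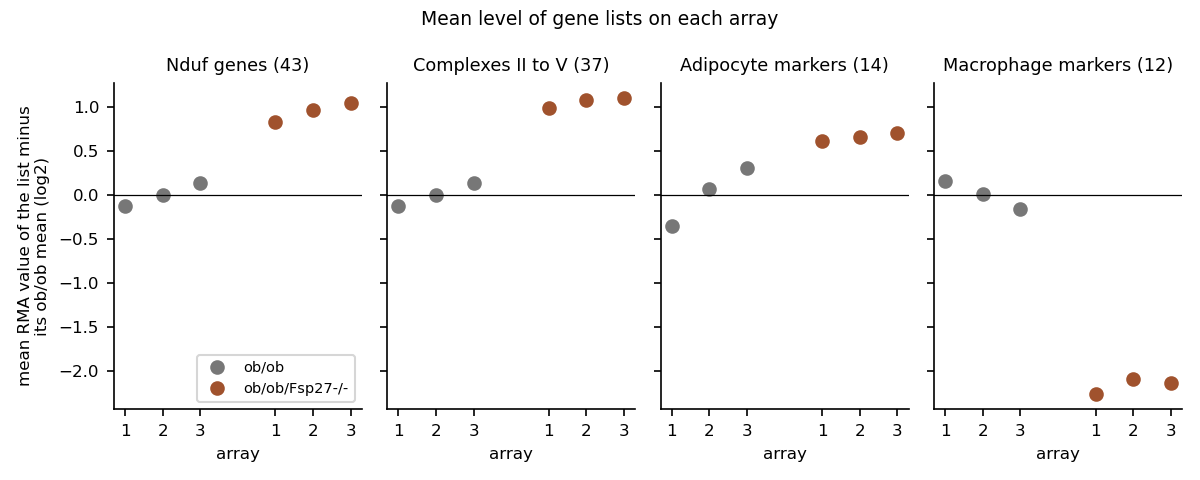
Mean RMA value (log2) of 4 gene lists on each array, minus the mean of the list over the *ob/ob* arrays. *Nduf* genes sit between -0.13 and 0.14 in *ob/ob* mice and between 0.82 and 1.04 in *ob/ob/Fsp27*-/- mice, adipocyte markers between -0.36 and 0.30 and between 0.61 and 0.70, and macrophage markers between -0.16 and 0.15 and between -2.27 and -2.09.

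Cell type markers moved with genotype beside the *Nduf* genes. Of 14 adipocyte markers, 8 were called higher, none lower, and their summed RMA value was 153 to 163 in *ob/ob* against 167 to 168 in *ob/ob/Fsp27*-/- mice. The log2 fold change was above 0 for 11 of the 14, with *Slc2a4* the largest at 2.10. It was below 0 for *Cidec* at -0.29, *Lep* at -0.22 and *Cd36* at -0.12. *Adipoq*, the adiponectin gene, was named after its values were seen. It ran from 10.59 through 11.22 to 11.68 over the *ob/ob* arrays, with the first array lowest as for most *Nduf* genes. In *ob/ob/Fsp27*-/- mice it was 12.28, 12.32 and 12.48. Macrophage markers were called lower in 11 of 12 cases, and their summed value was 118 to 122 in *ob/ob* against 92.9 to 95.1 in *ob/ob/Fsp27*-/- mice. *Marco* was the exception, at -0.02. Of 11 brown or beige adipocyte markers, 6 were called higher and none lower, with sums of 61.4 to 65.4 against 81.8 to 82.4. The largest log2 fold change of this list was 5.97 for *Elovl3* and the smallest -0.10 for *Tmem26*. *Ucp1*, the defining gene of brown fat, was at 5.19, 4.93 and 6.10 against 6.07, 5.34 and 6.03. It was not called (log2 fold change 0.40, adjusted p = 0.415). The part of these cell type shifts in the *Nduf* result was not tested. Of 12 muscle markers, which would mark another tissue rich in mitochondria, 2 were called higher, *Myl1* at 1.43 and *Des* at 0.61, and *Acta1* at 0.50 (adjusted p = 0.0446) fell just short of the fold threshold. Of all genes tested, 9.58% were called higher. The log2 fold change was above 0 for 9 of the 12 muscle markers, compared with 12031 of the 19937 genes tested. Its median was 0.10 for the muscle list and 0.06 for all genes, and *Ckm*, the smallest of the list, gave -0.03. The mean RMA value of the 12 was 5.75, 5.74 and 5.88 in *ob/ob* against 6.01, 6.15 and 6.01 in *ob/ob/Fsp27*-/- mice. The part of the muscle markers in the *Nduf* result was not tested either. Of the other lists, 4 of 8 endothelial markers were called higher, 4 of 8 stromal markers lower, and none of 6 T cell or 8 epididymis markers either way. Of 5 B cell markers, *Cd22* at -0.56 was called lower and none higher. The B cell list went mostly the other way, with 4 of the 5 above 0 and a median log2 fold change of 0.81. *Cidec*, the deleted gene, gave a log2 fold change of -0.29 (adjusted p = 0.157) on its probeset. Where its probes lie relative to the deletion is not given in the sources used here, so it does not check the labels.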

How the data were processed

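GWAT RNA from *ob/ob* and *ob/ob/Fsp27*-/- mice was amplified and hybridised by the authors to 6 arrays, 3 per genotype. The authors deposited log2 values, made with the RMA steps of background adjustment, quantile normalization and summary of probes. Processing tools named in the submitters' notes are RMA and limma, with versions not given in the sources used here. An array has no read depth, and its precision is limited by the number of arrays. Detection calls against background probes, which the study used as a filter, were not made.

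Of 34760 probesets, 22961 with a gene symbol were fitted with limma 3.58.1 in R 4.3.3 (lmFit, eBayes, no covariates), with Benjamini-Hochberg adjustment over all of them. For a call, the adjusted p had to be under 0.05 and the log2 fold change 0.5 or more either way. Genes were counted over the 21640 probesets with 1 symbol, taking the probeset with the highest mean for the 954 genes with several. The arrays were numbered in the order of their labels, which name no batch and do not pair the genotypes. P-values measure the spread between arrays of pooled RNA and not between mice. Values per array are given by rule for core subunits and for the largest and smallest change of each role group. They are also given for members not called and for *Ndufa4* and *Ndufa4l2*. In other lists, genes are named as extremes, exceptions or defining genes, though not every list has its extremes named. Any further gene, *Adipoq* among them, was chosen after its value was seen. The members, lists and tests were chosen with earlier results of these data known. Alternatives were filters on level, all probesets, centring, array weights, cyclic loess, treat, robust eBayes, limma-trend, other fold thresholds, other ways to pick probesets, updated symbols and leaving out each array. Promoters came from RefSeq, and figures were drawn with matplotlib 3.10.9 in python 3.11.15.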

Additional observations from a re-analysis of the deposited data

How the results depend on the processing

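The count of 38 *Nduf* genes called higher was 37 to 39 under the alternatives that kept all arrays and the fold threshold or dropped it, and 36 to 39 when each array was left out in turn. It fell to 20 at a log2 fold change of at least 1 and to 20 under treat, which tests against the fold threshold, and 17 genes were shared by both; of all genes tested, 3.27% and 2.84% were called higher under these settings. Genes of the comparison lists called higher or lower, 58 in all, were 31 and 35 under these 2 settings and 56 to 60 when an array was left out. No *Nduf* gene was called lower under any of the 20 alternatives, leaving out an array included, where the range was 0 to 0. The median log2 fold change was 0.88 to 1.04 when an array was left out. Of the 38 calls, 35 held without each array, 32 of them subunits. *Ndufaf4* lost its call without the first or second *ob/ob* array (adjusted p = 0.0550 and 0.0616), *Ndufa2* without the second *ob/ob*, the second or the third *ob/ob/Fsp27*-/- array (adjusted p = 0.0740, 0.0732 and 0.0691), and *Ndufc2* without the first *ob/ob* or second *ob/ob/Fsp27*-/- array and under array weights (log2 fold change 0.41, 0.48 and 0.46, under the threshold). *Ndufaf6* was called without the first *ob/ob/Fsp27*-/- array (0.51, adjusted p = 0.0421). The sign turned for genes not called: *Ndufaf5* was at -0.025 under cyclic loess and between -0.016 (without the third *ob/ob/Fsp27*-/- array) and 0.042 when an array was left out, and *Ndufaf3* between -0.14 and 0.015 (without the third *ob/ob* array). The cause was not tested. *Ndufaf5* lay below the filter at the median of all values and was not tested under it. Precision is limited by 3 arrays per genotype.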
